A study of Mus musculus with 8 samples.

Results

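The genes followed here belong to the intermediate filament family, namely Synm, Nes, Vim, Ina, Nefl, Nefm, Lmna, Lmnb1 and Lmnb2. They were chosen by name, as the rows of the deposited gene table that carry these symbols, with earlier results of these data known. All 9 had enough reads to be tested, among 15382 tested genes and 25299 genes with any count. RNA was sequenced from the dorsal forebrain, where the cerebral cortex forms, of male mouse embryos at E12.5. All had a mixed genetic background that includes C57BL/6J. Sufu-cKO embryos, the source of 4 samples (Mut_295, Mut_317, Mut_337, Mut_340), had the genotype Emx1-cre/+;Sufu-fl/fl, in which Cre removes both floxed copies of Sufu, the gene of a protein that restrains Sonic hedgehog signalling. The other 4 samples were controls (Cont_294, Cont_345, Cont_365, Cont_370), labelled as carrying floxed Sufu on 1 or both chromosomes. The labels do not say which control had which, or whether each sample was 1 embryo. The control label names no Emx1-cre, so by label the groups differ in Cre as well as in Sufu. An effect of Cre itself was not tested. Emx1-cre acts in progenitors of the dorsal telencephalon and their descendants, so vessels, microglia, mesenchyme and cells that entered from ventral domains keep Sufu.

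Sufu, the targeted gene, had 44.8, 44.5, 37.4 and 35.9 CPM (reads per 1e6 counted) in Sufu-cKO, against 106, 125, 112 and 105 CPM in the control samples, and the groups did not overlap. Total counts lay between 27514357 and 34878838 per sample. The tissue label was checked on Emx2 and Lhx2, transcription factor genes of the dorsal forebrain, which were present in both groups. Emx2 had 122 ± 8.47 CPM in Sufu-cKO and 201 ± 19.6 CPM in control samples, and Lhx2 had 405 ± 43.9 CPM in Sufu-cKO and 577 ± 45.2 CPM in control samples (SD, n = 4 each). Among the Sufu-cKO libraries, Mut_337 and Mut_340 each stood apart in some marker lists. In Mut_337 the summed level of 9 pericyte and mesenchyme markers was 1585 CPM, against 774 to 798 CPM in the rest of the Sufu-cKO group and 941 to 1005 CPM in controls. In Mut_340 the 7 choroid plexus markers summed to 71.9 CPM, against 219 to 256 CPM in the rest of the Sufu-cKO group, and the 12 genes of young neurons to 3054 CPM, against 2823 to 2843 CPM.

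Intermediate filaments are built from rod-shaped proteins that pair along a central coiled coil and assemble into rope-like polymers. Vimentin is the main cytoplasmic filament of neural progenitors, and nestin and synemin, which carry very long tails, join filaments that vimentin forms. As neurons differentiate, alpha-internexin and then the neurofilament subunits take over. The lamins form a separate network that lines the inside of the nucleus, and B-type lamins are needed for normal growth of the cerebral cortex.

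Synm, Nes, Vim and Ina were higher in Sufu-cKO than in control samples, and none of the 9 genes was lower. Synm stood 5.95-fold higher, while Nes, Vim and Ina stood 1.34-fold to 1.36-fold higher. Nefl, Nefm, Lmna, Lmnb1 and Lmnb2 did not pass the test, and leaving out any 1 of the 8 samples changed none of these 9 calls. A gene was called when the Benjamini-Hochberg adjusted p of edgeR's quasi-likelihood test over all tested genes was under 0.05. By that rule 11.0% of all tested genes were called, 5.34% higher and 5.64% lower, beside 4 of these 9 genes higher and 0 lower. Since the 9 genes were chosen with earlier results known, these shares are given for scale and are no test of the set. They are also the scale for the counts called in the related lists below, which were chosen in the same way. The same 4 genes showed no overlap between groups with Sufu-cKO higher, which held for 8.33% of all tested genes (16.2% in either direction). In the authors' deposited table the same 4 genes had a false discovery rate under 0.05, as had 5.78% of genes with any count. The median log2 fold change was 0.35 over the 9 genes and 0.01 over all tested genes. That 0.35 is the value of Lmna, which was not called and stood at -0.25 without Mut_337. In whole tissue, more cells of a type and more RNA per cell cannot be told apart.

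**Figure D1:**
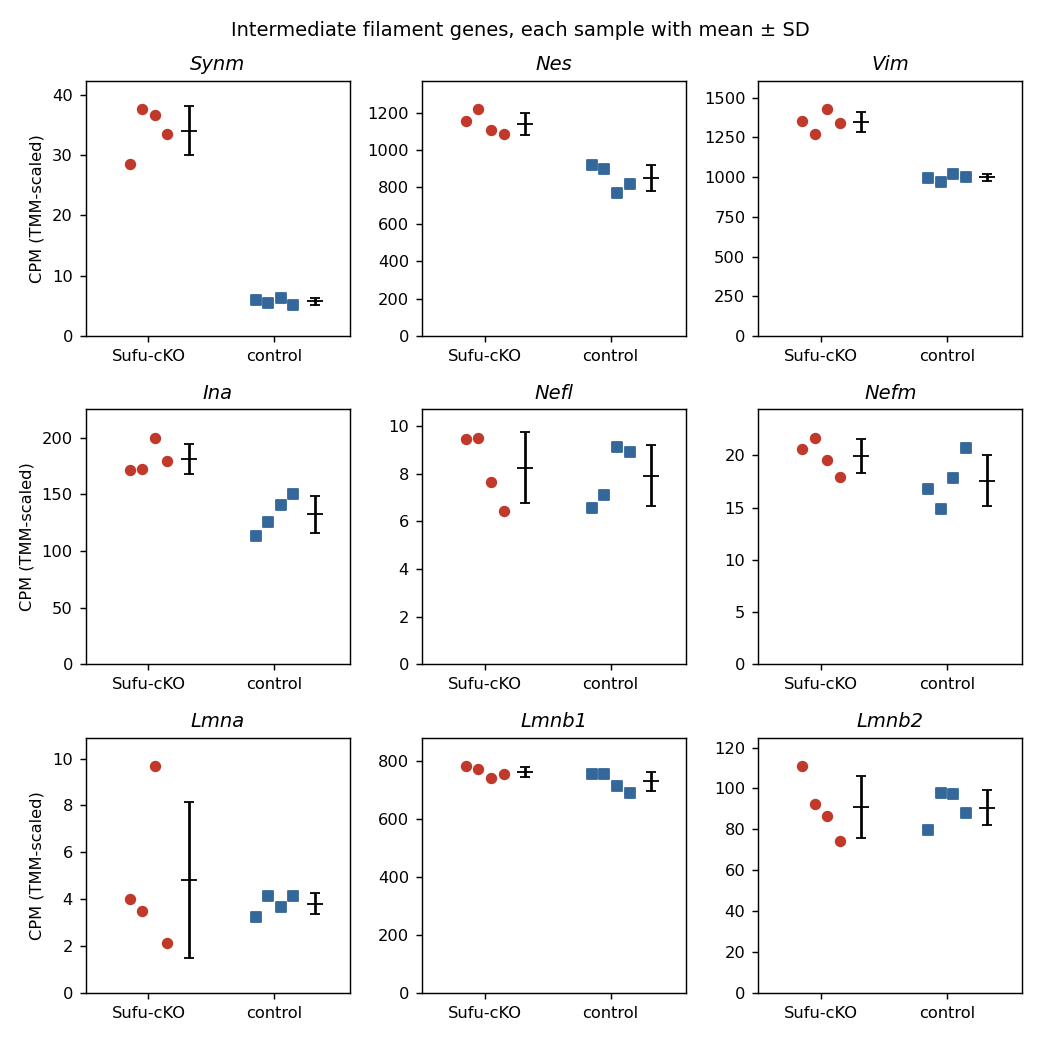
CPM of each of the 9 genes (vertical axes, each from 0) in the 4 Sufu-cKO samples (circles) and the 4 control samples (squares), with mean ± SD as a bar beside the points. All Sufu-cKO points lie above all control points for Synm, Nes, Vim and Ina, and 1 Sufu-cKO point of Lmna, at 9.67 CPM, lies far above the others.

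Synemin, the product of Synm, is a filament protein that cannot polymerise alone and that links vimentin or desmin filaments to membrane-associated complexes. Synm (ENSMUSG00000030554) lies on chromosome 7 from 67730161 to 67759742, minus strand, in GRCm38. The 250 bases upstream of the transcription starts that RefSeq (GRCm38.p6) gives for the 4 genes that rose are shown for comparison, each on the gene's own strand, at chr7:67759743-67759992 (minus) for Synm, chr3:87970843-87971092 (plus) for Nes, chr2:13574061-13574310 (plus) for Vim and chr19:47014431-47014680 (plus) for Ina. Capitals mark a CCAAT box (CCAAT), a GC box (GGGCGG) or a TATA box (TATAAA), each searched on both strands and marked where it or its reverse complement was found, and no matches overlapped in these windows.
Synm: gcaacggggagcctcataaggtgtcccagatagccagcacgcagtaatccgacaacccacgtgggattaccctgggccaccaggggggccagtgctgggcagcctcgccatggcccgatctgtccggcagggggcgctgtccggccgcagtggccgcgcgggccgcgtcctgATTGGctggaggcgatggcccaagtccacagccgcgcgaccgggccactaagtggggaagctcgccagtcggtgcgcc
Nes: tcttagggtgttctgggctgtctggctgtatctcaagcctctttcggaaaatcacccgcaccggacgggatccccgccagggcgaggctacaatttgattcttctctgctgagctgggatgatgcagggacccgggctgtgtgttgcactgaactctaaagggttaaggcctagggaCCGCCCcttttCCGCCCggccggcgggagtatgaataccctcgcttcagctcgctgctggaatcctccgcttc
Vim: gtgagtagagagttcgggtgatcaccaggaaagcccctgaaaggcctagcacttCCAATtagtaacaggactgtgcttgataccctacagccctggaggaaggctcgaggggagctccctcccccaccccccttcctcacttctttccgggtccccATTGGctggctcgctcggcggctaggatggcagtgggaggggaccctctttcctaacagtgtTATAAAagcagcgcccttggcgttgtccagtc
Ina: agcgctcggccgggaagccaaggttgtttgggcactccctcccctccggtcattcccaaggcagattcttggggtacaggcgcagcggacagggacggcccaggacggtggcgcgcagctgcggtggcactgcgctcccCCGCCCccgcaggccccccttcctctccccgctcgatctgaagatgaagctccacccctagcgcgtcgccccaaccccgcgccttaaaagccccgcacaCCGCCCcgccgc

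The 4 windows differed in their motifs. Synm had 1 CCAAT box, Vim had 2 CCAAT boxes and a TATA box, and Nes and Ina had 2 GC boxes each. Among 32851 RefSeq promoter windows of the same length, 33.8% held a CCAAT box, 32.7% a GC box and 12.4% a TATA box. The GLI consensus GACCACCCA, the sequence bound by the transcription factors of hedgehog signalling, was in none of the 4 windows on either strand and in 0.225% of all windows. G and C made up 70% of the Synm window and 70.8% of the Ina window, against a median of 52.4% over all windows, and 58.8% for Nes and 58.4% for Vim. Of the 9 genes, 6 had a window in the RefSeq table. The Vim window lies inside the gene interval of the deposited table, which starts upstream of the RefSeq start.

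Synm had 28.6, 37.6, 36.6 and 33.4 CPM in Mut_295, Mut_317, Mut_337 and Mut_340, against 5.97, 5.43, 6.35 and 5.14 CPM in Cont_294, Cont_345, Cont_365 and Cont_370. The lowest Sufu-cKO sample lay far above the highest control sample. As reads, these were 863 to 1249 counts in Sufu-cKO and 149 to 201 counts in control samples. Synm averaged 34.0 ± 4.05 CPM in Sufu-cKO and 5.72 ± 0.541 CPM in control samples (SD, n = 4 each). On the log2 scale the difference was 2.57 (SE 0.112, adjusted p = 1.22e-07 by edgeR). By p-value Synm ranked 4 among the 15382 tested genes, and by size it ranked 35 among the 822 genes called higher. The authors' deposited table gives a fold change of 5.94 and a false discovery rate of 2.65e-53 for Synm.

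Exons of Synm share 84 bases, or 1.06% of its exon length, with Ttc23 on the opposite strand. Ttc23 had 39.2 ± 0.999 CPM in Sufu-cKO and 39.9 ± 1.01 CPM in control samples (SD, n = 4 each; edgeR, adjusted p = 0.868). A further 426 bases of Synm, or 5.37%, are shared with the model Gm45102, which was not analysed here.

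The genes whose profile over the 8 samples lay nearest to that of Synm were Lypd6, Hivep2 and Plxnc1. Likeness was measured as the root mean square distance between log2 CPM profiles, each centred on its own mean, among 9991 other genes with at least 10 CPM on average. These distances were 0.155, 0.157 and 0.189 log2 units, and they are small by choice. The median over all candidates, 1.28, mostly reflects the large group difference of Synm itself, since genes without such a difference lie far from it. The 3 genes had log2 fold changes of 2.64, 2.42 and 2.69, near the 2.57 of Synm, so the distances are no evidence of a further link. Lypd6 encodes a membrane-anchored protein of the Ly6 family and stood at 145 CPM in Sufu-cKO and 23.2 CPM in control samples. Hivep2, a zinc finger transcription factor gene, stood at 64.0 and 11.9 CPM in Sufu-cKO and control samples. Plxnc1, which encodes a semaphorin receptor, stood at 257 CPM in Sufu-cKO and 39.7 CPM in control samples. In Lypd6 and Hivep2, as in Synm, Mut_295 was the lowest Sufu-cKO sample, at 105 and 50.2 CPM.

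Of 6 tested genes whose proteins are known to bind synemin, 2 were called, 1 in each direction. Dtna encodes alpha-dystrobrevin, a cytoplasmic member of the dystrophin complex. It had 45.4, 40.1, 36.7 and 62.1 CPM in Mut_295, Mut_317, Mut_337 and Mut_340, against 11.2, 9.95, 10.05 and 12.8 CPM in Cont_294, Cont_345, Cont_365 and Cont_370. The groups did not overlap, with a 4.18-fold higher level in Sufu-cKO (log2 fold change 2.06, SE 0.164; edgeR, adjusted p = 2.63e-05). Dmd encodes dystrophin, which ties the cytoskeleton to the membrane. Dmd had 39.5, 40.6, 42.4 and 42.1 CPM in the Sufu-cKO samples, against 88.6, 79.9, 81.5 and 71.9 CPM in the control samples. The groups again did not overlap, and Dmd fell by 0.97 on the log2 scale (SE 0.0688; edgeR, adjusted p = 4.20e-06). Utrn, Vcl, Tln1 and Zyx, which encode utrophin and the adhesion proteins vinculin, talin and zyxin, had log2 fold changes between -0.05 and 0.19 and were not called. The same number, 2, was called when any of the 8 samples was left out and in each of the 9 other settings tried.

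**Figure D2:**
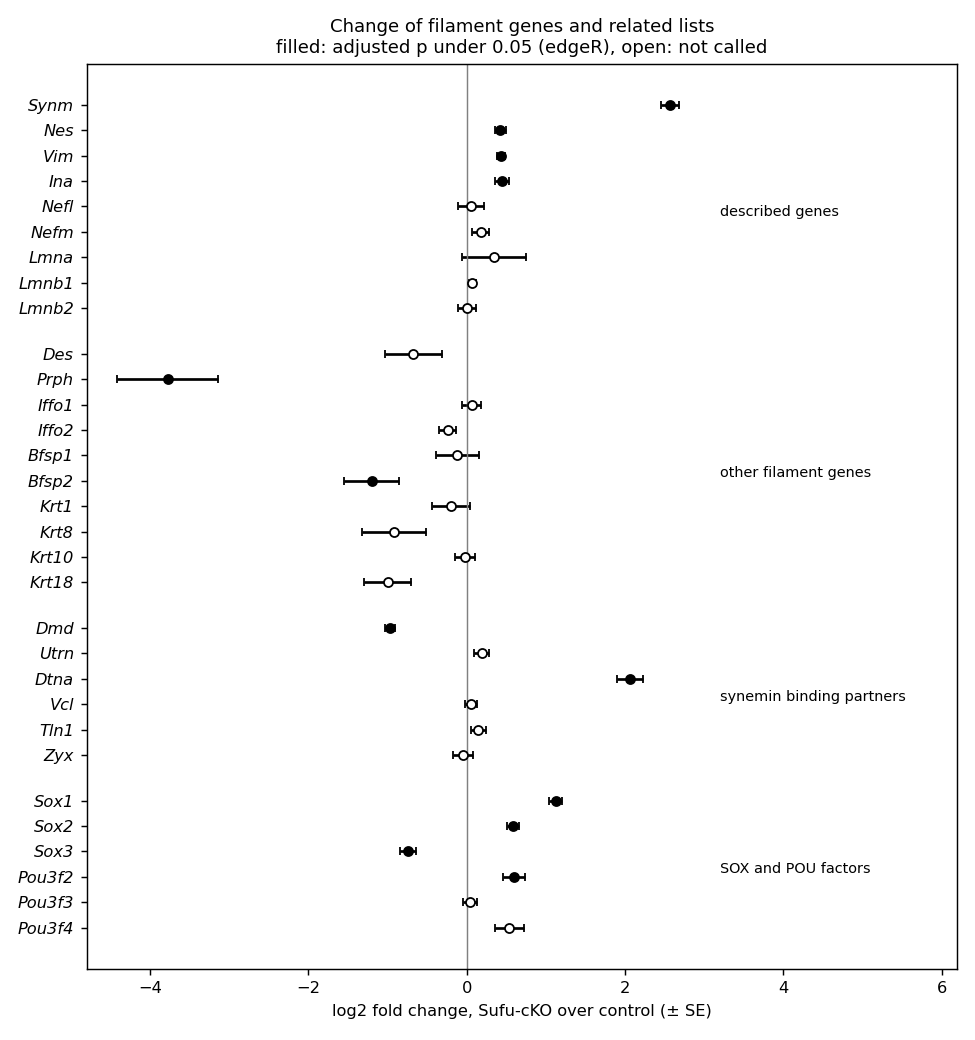
Log2 fold change, Sufu-cKO over control, with SE (horizontal axis) for the 9 genes, the other tested filament genes, synemin binding partners, and SOX and POU factors of the nestin enhancer. Filled points were called (edgeR, adjusted p under 0.05). Synm at 2.57 and Dtna at 2.06 lie farthest to the right, and Prph at -3.78 farthest to the left.

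Nes and Vim, the filament genes of radial glia, rose by nearly equal amounts. Nes (ENSMUSG00000004891, chromosome 3, 87971078 to 87980451, plus strand), whose product nestin is a marker of neural progenitors, had 1153, 1217, 1104 and 1085 CPM in Mut_295, Mut_317, Mut_337 and Mut_340, against 917, 897, 766 and 817 CPM in Cont_294, Cont_345, Cont_365 and Cont_370. Nes was thus higher by 0.42 on the log2 scale (SE 0.0675, adjusted p = 0.00161 by edgeR). Vim (ENSMUSG00000026728, chromosome 2, 13573927 to 13582826, plus strand) had 1355, 1274, 1426 and 1337 CPM in the Sufu-cKO samples and 995, 970, 1022 and 1003 CPM in the control samples. The log2 difference for Vim was 0.43 (SE 0.0526, adjusted p = 0.000237 by edgeR). For both genes every Sufu-cKO sample lay above every control sample, and the controls of Vim were close together (coefficient of variation 2.16%, against 8.27% for Nes in control samples).

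Vim is also expressed by mesenchymal and vascular cells, and its highest sample was Mut_337, the library with the highest mesenchyme markers. Without Mut_337 the log2 fold change of Vim was 0.40 (SE 0.058; edgeR, adjusted p = 0.00118), and that of Nes was 0.43 (SE 0.0768; edgeR, adjusted p = 0.00428). The genes nearest to Vim in profile were Coro1c, an actin-binding coronin (distance 0.0418 log2 units), 2210013O21Rik (0.0557) and Eif1b (0.0559). Those nearest to Nes were Tpd52 (distance 0.0729 log2 units), Lap3, an aminopeptidase gene (0.0762), and Lpar1, a receptor for lysophosphatidic acid (0.0774).

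Ratios within a sample do not depend on library scaling, and 14 of them were compared. The log2 ratio of Nes to Vim was -0.24 ± 0.130 in Sufu-cKO and -0.24 ± 0.147 in control samples (SD, n = 4 each), a difference of -0.01 with an SE of 0.0983 (exact permutation test, 2-sided, p = 0.914, adjusted p = 0.943 over the 14 ratios). Relative to both, Synm was higher in every Sufu-cKO sample than in any control sample. The log2 ratio of Synm to Vim was -5.31 ± 0.198 in Sufu-cKO and -7.43 ± 0.121 in control samples, and that of Synm to Nes was -5.07 ± 0.182 in Sufu-cKO and -7.20 ± 0.203 in control samples (SD, n = 4 each). The exact 2-sided permutation p was 0.0286 for both, the smallest that 4 against 4 samples allow, and the adjusted p was 0.0667, which misses the threshold. At that smallest p the adjusted p depends on how many of the 14 ratios reach it, so no ratio could pass alone.

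Nes and Vim were also set against an index of 10 other progenitor genes, the mean of their log2 CPM. The index stood at 7.44 ± 0.0631 in Sufu-cKO and 7.31 ± 0.068 in control samples (SD, n = 4 each), and 3 of its 10 genes were called higher and none lower. Slc1a3, the glutamate transporter of radial glia, was 2.53-fold higher, Pax6, a transcription factor gene of dorsal progenitors, was 1.45-fold higher, and Sox2 was higher by 0.58 on the log2 scale. The other 7 genes, among them Fabp7 (-0.34), Hes1 (-0.20), Sox9 (-0.19) and Prom1 (-0.15), had log2 fold changes below 0 and were not called. The median over the 10 genes was -0.09, so it differs in sign from the index, whose higher mean in Sufu-cKO came from the 3 called genes. The log2 ratio of Nes to the index was 2.71 ± 0.113 in Sufu-cKO and 2.41 ± 0.103 in control samples, and that of Vim was 2.95 ± 0.0923 in Sufu-cKO and 2.65 ± 0.0967 in control samples (SD, n = 4 each). For both the groups did not overlap, with an exact permutation p of 0.0286 and an adjusted p of 0.0667. With the median of the 10 genes as the index, the adjusted p of the exact permutation tests was 0.114 for Nes and 0.08 for Vim, and Nes no longer had the smallest p that the design allows. Without Mut_337, in which the Vim ratio was highest, the difference for Vim was 0.26, against 0.30 with all samples.

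SOX and POU transcription factors act on the neural enhancer of Nes, which lies in an intron of the gene. Of 6 such genes tested, 3 were called higher and 1 lower, beside 5.34% higher and 5.64% lower over all tested genes. The list was chosen with earlier results known, so the count is no test of it. Pou3f3 (log2 fold change 0.04; edgeR, adjusted p = 0.835) and Pou3f4 (0.54; edgeR, adjusted p = 0.0932) were not called. The part of these factors in the Nes difference was not tested. Sox1 had 209, 185, 183 and 234 CPM in the Sufu-cKO samples, against 90.5, 103, 90.3 and 88.2 CPM in the control samples (log2 fold change 1.12; edgeR, adjusted p = 5.68e-06). Sox2 had 295.3 to 346 CPM in Sufu-cKO and 184 to 231 CPM in control samples, and Pou3f2 had 69.7 to 106 CPM in Sufu-cKO and 47.5 to 61.9 CPM in control samples. These 3 genes had groups that did not overlap and higher values in Sufu-cKO. Sox3 went the other way, at 44.0 ± 5.37 CPM in Sufu-cKO and 73.4 ± 8.18 CPM in control samples (SD, n = 4 each; edgeR, adjusted p = 0.000543). Pou3f2 (edgeR, adjusted p = 0.0213) lost its call without Cont_294, Cont_365 or Mut_295 (adjusted p from 0.0554 to 0.0593).

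**Figure D3:**
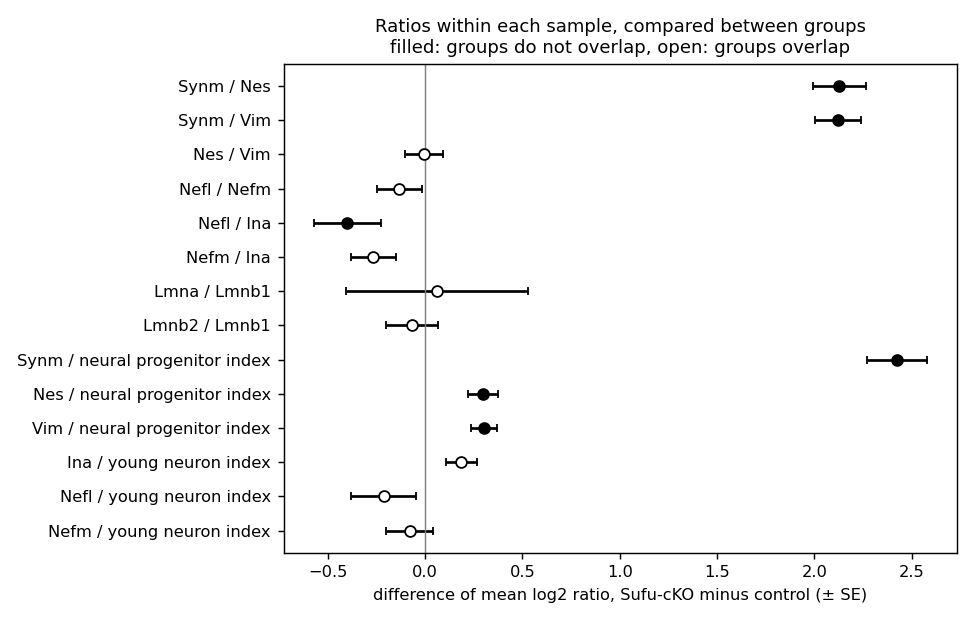
Difference between Sufu-cKO and control samples in the mean log2 ratio, with SE (horizontal axis), for 14 ratios between filament genes or to an index of progenitor or neuron genes. Filled points mark ratios whose groups do not overlap. The ratio of Nes to Vim lies at -0.01, while Synm over Vim and Synm over Nes lie at 2.12 and 2.13.

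Among the neuronal filament genes, Ina rose and both neurofilament genes were not called. Ina (ENSMUSG00000034336, chromosome 19, 47014698 to 47025327, plus strand) encodes alpha-internexin, the filament protein that appears before the neurofilaments in differentiating neurons. It had 171, 172, 200 and 180 CPM in Mut_295, Mut_317, Mut_337 and Mut_340, against 113, 125, 141 and 150 CPM in Cont_294, Cont_345, Cont_365 and Cont_370. The groups did not overlap, and Ina was higher by 0.45 on the log2 scale (SE 0.0865, adjusted p = 0.0058 by edgeR). The closest samples were Mut_295 and Cont_370. The highest was Mut_337, and without it the log2 difference was 0.39 (adjusted p = 0.0179 by edgeR).

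Ina starts 526 kb beyond the end of Sufu on the same chromosome. Of 37 tested genes within 1 Mb of Sufu, Ina was the only one called, which is 2.70% against 11.0% over all tested genes. The first 456 exon bases of Ina, 14.1% of its exon length, are shared with Nt5c2 on the opposite strand. Nt5c2 had 74.2 ± 0.448 CPM in Sufu-cKO and 75.3 ± 2.34 CPM in control samples (SD, n = 4 each; edgeR, adjusted p = 0.877). The genes nearest to Ina in profile were Runx1t1, which encodes a transcriptional corepressor (distance 0.0398 log2 units), Dusp8, a phosphatase of MAP kinases (0.0675), and Map6, which encodes a stabiliser of neuronal microtubules (0.0743).

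Nefl (ENSMUSG00000022055, chromosome 14, 68083863 to 68089095, plus strand), the light neurofilament subunit, had 9.43, 9.50, 7.65 and 6.43 CPM in the Sufu-cKO samples and 6.55, 7.11, 9.10 and 8.92 CPM in the control samples. The groups overlapped (log2 fold change 0.06, SE 0.16; edgeR, adjusted p = 0.891). Nefm (ENSMUSG00000022054, chromosome 14, 68082590 to 68124846, minus strand), the medium subunit, had 20.7, 21.7, 19.5 and 17.9 CPM in Sufu-cKO and 16.8, 14.9, 17.9 and 20.8 CPM in control samples (log2 fold change 0.18, SE 0.109; edgeR, adjusted p = 0.374). The 2 gene models overlap on opposite strands over 1108 exon bases, 32.8% of the exon length of Nefl. The library kit marks strand, but the strand setting of the counting is not given in the sources used here, so reads of one could have been counted for the other. The log2 ratio of Nefl to Ina was -4.46 ± 0.333 in Sufu-cKO and -4.06 ± 0.0805 in control samples (SD, n = 4 each). Its groups did not overlap, with lower values in Sufu-cKO (exact permutation p = 0.0286, adjusted p = 0.0667), while those of Nefm to Ina did (exact permutation p = 0.114).

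An index of 12 genes of young neurons stood at 7.03 ± 0.0559 in Sufu-cKO and 6.76 ± 0.121 log2 CPM in control samples (SD, n = 4 each). Of its genes 5 were called higher and none lower, among them Dcx at 1.38-fold, which encodes a microtubule protein of migrating neurons, and Syt1, a synaptic vesicle calcium sensor gene, at 1.61-fold. The number was 3 without Cont_294, Cont_345, Mut_317, Mut_337 or Mut_340. Relative to that index, Ina stood at 0.46 ± 0.127 in Sufu-cKO and 0.28 ± 0.0916 in control samples on the log2 scale (SD, n = 4 each), with overlap between the groups (exact permutation p = 0.0857, adjusted p = 0.171). The difference of 0.19 was 0.12 without Mut_337 and 0.09 with the median of the 12 genes as the index. Nefl and Nefm relative to the index differed by -0.21 (SE 0.167) and -0.08 (SE 0.119), Sufu-cKO minus control, and neither passed (adjusted p = 0.44 and 0.655, exact permutation tests over the 14 ratios). Without Mut_340 these differences were -0.07 for Nefl and -0.0032 for Nefm. With the median index they were -0.31 for Nefl and -0.18 for Nefm (exact permutation tests, adjusted p = 0.114 and 0.222). For Nefm the difference ranged from -0.15 (without Cont_345) to -0.0032 with 1 sample left out, and it moved by over 1.5 times also without Cont_294 (-0.05), Cont_370 (-0.02) or Mut_317 (-0.12).

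The lamin genes did not pass the test. Lmnb1 (ENSMUSG00000024590, chromosome 18, 56707813 to 56753424, plus strand), which encodes the main lamin of dividing neural cells, had 783, 773, 741 and 758 CPM in Sufu-cKO and 758, 758, 716 and 691 CPM in control samples (log2 fold change 0.06, SE 0.0517; edgeR, adjusted p = 0.532). Lmnb2 (ENSMUSG00000062075, chromosome 10, 80901203 to 80918245, minus strand) had 74.4 to 111 CPM in Sufu-cKO and 79.8 to 97.7 CPM in control samples (log2 fold change 0.01, SE 0.113; edgeR, adjusted p = 0.987). The log2 ratio of Lmnb2 to Lmnb1 was -3.08 ± 0.216 in Sufu-cKO and -3.01 ± 0.16 in control samples (SD, n = 4 each; exact permutation p = 0.629).

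Lmna (ENSMUSG00000028063, chromosome 3, 88481148 to 88509956, minus strand) encodes lamins A and C, which are abundant in stiff tissues such as connective tissue and low in early neural cells. It had 4.01, 3.48, 9.67 and 2.13 CPM in Mut_295, Mut_317, Mut_337 and Mut_340, against 3.22, 4.16, 3.66 and 4.15 CPM in Cont_294, Cont_345, Cont_365 and Cont_370. Mut_337 was the highest of the 8 samples and Mut_340 the lowest. The log2 difference was 0.35 (SE 0.402, adjusted p = 0.692 by edgeR), and without Mut_337 it was -0.25 (SE 0.221; edgeR, adjusted p = 0.594). Mesenchyme genes were highest in the same library. Col1a1, a chain of fibrillar collagen, had 221 CPM in Mut_337, against 48.5 to 57.6 CPM in the rest of the Sufu-cKO group and 64.6 to 82.0 CPM in controls. The keratin genes Krt5, Krt14 and Krt15 of surface epithelium had 102, 30 and 59 counts in Mut_337, 23, 3 and 9 counts in Mut_340, and 0 to 3 counts in every other sample. The part of these cells in the Lmna value was not tested.

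**Figure D4:**
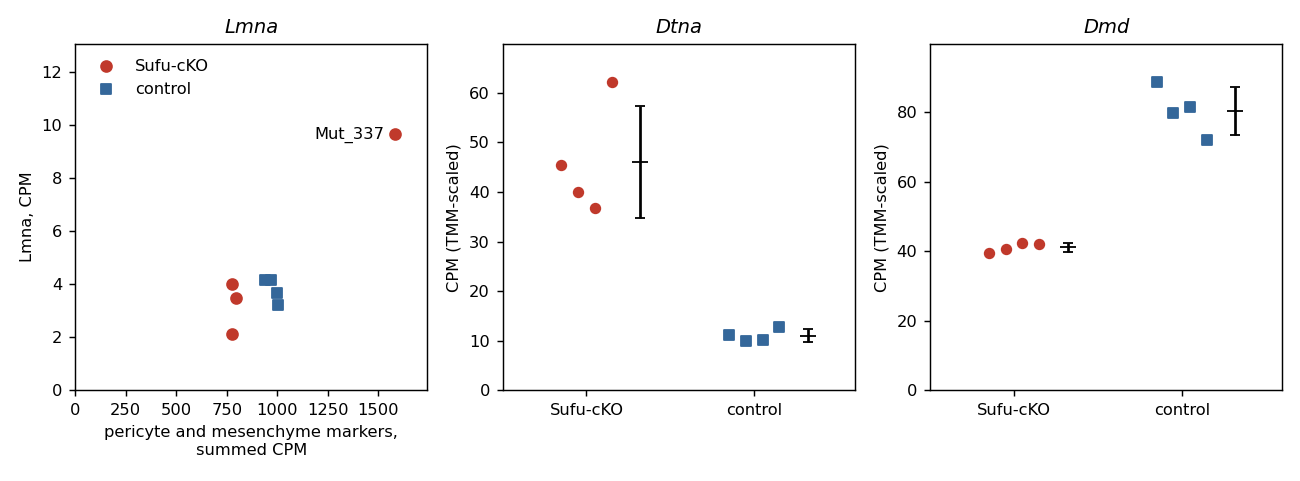
Left, Lmna in CPM (vertical axis) against the summed CPM of 9 pericyte and mesenchyme markers (horizontal axis) in each sample. Mut_337 lies alone at 9.67 and 1585 CPM. Middle and right, CPM of Dtna and Dmd in each sample with mean ± SD. For both genes the Sufu-cKO (circles) and control (squares) samples do not overlap.

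Of 13 tested genes for nuclear envelope partners of the lamins, Syne3, which encodes a nesprin of the outer nuclear membrane, was called lower. It had 0.351 ± 0.23 CPM in Sufu-cKO and 1.09 ± 0.276 CPM in control samples (SD, n = 4 each; log2 fold change -1.62, edgeR, adjusted p = 0.0167), and lost its call without Cont_345 (adjusted p = 0.0594) or Mut_317 (adjusted p = 0.0503). The other 12, among them Tmpo, Lbr, Emd, Sun1 and Sun2, were not called, and the median log2 fold change of the list was -0.02. Without Mut_340 the list had 2 called genes. Of 5 genes for farnesylation and maturation of lamins, edgeR called 0, with 0 at an unadjusted p under 0.05 and 0 called by DESeq2 and limma-voom. Of 11 kinases that phosphorylate filament proteins, among them Cdk1 and Aurkb, edgeR called 0, with 1 at an unadjusted p under 0.05 and 0 called by DESeq2 and limma-voom. Without Cont_365, edgeR called 1 of the 11. Of 4 tested plakins, which crosslink filaments to other structures, edgeR called 0, with 0 at an unadjusted p under 0.05 and 0 called by DESeq2 and limma-voom.

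Of 22 other intermediate filament genes 10 had enough reads to be tested. Among these, 2 were called lower and none higher, and the median log2 fold change was -0.46, against 0.01 over all tested genes. Iffo1, Iffo2 and Krt10, the most abundant of them, had log2 fold changes of 0.07, -0.24 and -0.02 and were not called. The rest averaged at most 3.46 CPM in either group, so the median rests mostly on genes at low levels. Prph encodes peripherin, a filament of peripheral and some central neurons. It had 2, 1, 1 and 10 counts in Mut_295, Mut_317, Mut_337 and Mut_340, against 50, 60, 63 and 20 counts in Cont_294, Cont_345, Cont_365 and Cont_370. The groups did not overlap, and Prph fell by 3.78 on the log2 scale (SE 0.642; edgeR, adjusted p = 0.00382). Bfsp2, a lens filament gene, stood at 0.436 of the control level on the linear scale (log2 SE 0.348; edgeR, adjusted p = 0.0463), with low levels of 0.37 ± 0.122 CPM in Sufu-cKO and 0.863 ± 0.281 CPM in control samples (SD, n = 4 each), and was no longer called when any of 6 of the 8 samples was left out. Krt18, a keratin of simple epithelia, had 1.73 ± 0.734 CPM in Sufu-cKO and 3.46 ± 0.395 CPM in control samples (SD, n = 4 each; edgeR, adjusted p = 0.0525). Gfap, the filament gene of astrocytes, had 1 to 5 counts in Sufu-cKO and 2 to 12 counts in control samples, and Nefh, the heavy neurofilament subunit, had 0 to 5 counts in Sufu-cKO and 1 to 6 counts in control samples. Both were too low to be tested. The number called in this list was 1 without Cont_294, Cont_345, Cont_365, Mut_317 or Mut_337 and 4 without Mut_295. In the other settings it ranged from 0, with a filter of at least 1 CPM in 4 samples, to 3, with no low-count filter.

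Levels of different genes were compared per kilobase of exon. In Sufu-cKO samples the order was Vim (284 ± 13.2 CPM per kb), Lmnb1 (258 ± 6.17), Nes (178 ± 9.18), Ina (55.8 ± 4.09), Lmnb2 (21.2 ± 3.55), Synm (4.29 ± 0.511), Nefm (3.45 ± 0.28), Nefl (2.44 ± 0.441) and Lmna (0.826 ± 0.57 CPM per kb). In control samples it was Lmnb1 (247 ± 11.1 CPM per kb), Vim (210 ± 4.54), Nes (132 ± 10.9), Ina (40.9 ± 5.09), Lmnb2 (21.1 ± 1.99), Nefm (3.04 ± 0.425), Nefl (2.34 ± 0.379), Synm (0.721 ± 0.0682) and Lmna (0.651 ± 0.0766 CPM per kb; SD, n = 4 each throughout). Neighbours in these orders whose samples overlapped were Synm and Nefm in Sufu-cKO, and Nefm and Nefl, and Synm and Lmna, in control samples. Per kilobase, Vim thus lay above Lmnb1 in every Sufu-cKO sample and below it in every control sample. This order depends on the length used, which joins the exons of all annotated transcripts, 4743 bases for Vim and 2962 bases for Lmnb1. In plain CPM Vim lay above Lmnb1 in both groups, at 998 against 730 CPM in control samples.

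The 6 cytoplasmic filament genes summed to 528 ± 12.4 CPM per kb in Sufu-cKO and 390 ± 3.7 CPM per kb in control samples (SD, n = 4 each), and the 3 lamin genes to 280 ± 8.82 CPM per kb in Sufu-cKO and 268 ± 11.1 CPM per kb in control samples. Within the cytoplasmic sum Vim held 53.8% ± 1.70 in Sufu-cKO and 54.0% ± 1.43 in control samples, and Nes held 33.7% ± 2.01 in Sufu-cKO and 34.0% ± 2.63 in control samples (SD, n = 4 each). Synm held 0.813% ± 0.095 in Sufu-cKO and 0.185% ± 0.0186 in control samples. Synm thus stayed a minor part of the filament RNA in both groups.

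**Figure D5:**
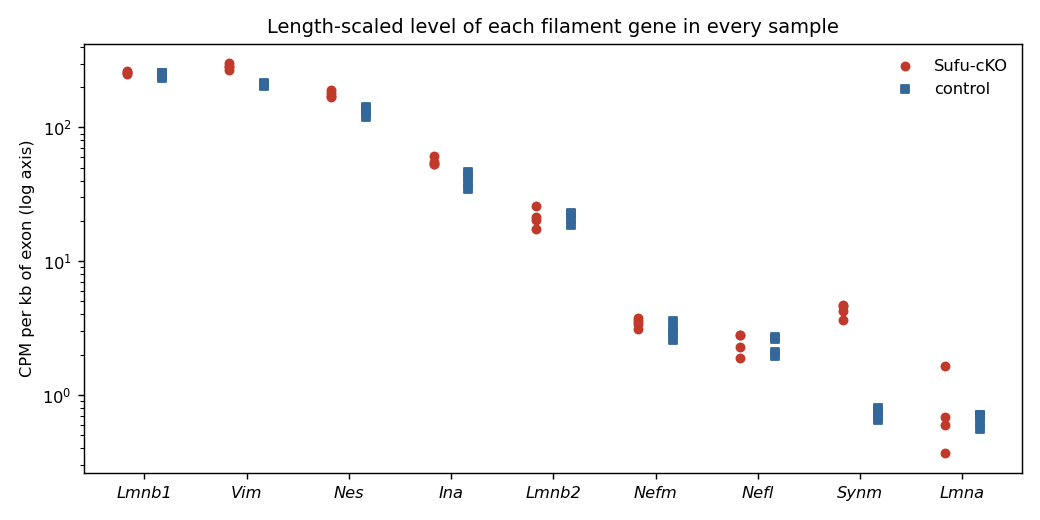
Level of each gene in CPM per kb of exon (vertical axis, log scale) in every sample, Sufu-cKO (circles) left of control (squares), with genes ordered by their control mean. In Sufu-cKO samples Synm lies above Nefl, and in control samples its range overlaps in part with that of Lmna.

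Markers of other cell types differed between the groups as well. The 7 choroid plexus markers summed to 71.9 to 256 CPM in Sufu-cKO and 475 to 760 CPM in control samples, with 3 of 6 tested genes called lower. The 8 endothelial markers summed to 253 to 303 CPM in Sufu-cKO and 300.0 to 341 CPM in control samples, with 2 called lower, and the 7 microglia markers to 30.1 to 37.7 CPM in Sufu-cKO and 38.7 to 51.4 CPM in control samples, with 3 called lower. Ttr, a choroid plexus marker at 143 ± 65.1 CPM in Sufu-cKO and 465 ± 103 CPM in control samples (SD, n = 4 each), was not called (edgeR, adjusted p = 0.0591), although its groups did not overlap. With 1 sample left out, the number of choroid plexus markers called was 5 without Mut_340 and 3 without Mut_337. It was 2 without Cont_294, Cont_345, Cont_365, Cont_370, Mut_295 or Mut_317. For the endothelial markers the number was 1 without Cont_294, Cont_365, Cont_370, Mut_317 or Mut_340. For the microglia markers it was 0 without Cont_345, Cont_365, Mut_317 or Mut_340, and 1 without Cont_294 or Mut_295. Sums of the 7 GABAergic neuron markers varied widely, from 24.3 to 169 CPM in Sufu-cKO and from 6.49 to 97.7 CPM in control samples. Of these 7, edgeR called 0, with 0 at an unadjusted p under 0.05 and 0 called by DESeq2 and limma-voom. Their log2 fold changes were all above 0, with a median of 1.28, against 0.01 over all tested genes, and SE from 0.642 to 1.01. With SE of this size, the lack of calls does not show equal levels. The 6 Cajal-Retzius markers summed to 158 to 204 CPM in Sufu-cKO and 195 to 222 CPM in control samples, with 1 called higher and 1 lower (1 called in all without Cont_345 or Cont_365). The 6 peripheral neuron markers summed to 4.01 to 13.0 CPM in Sufu-cKO and 4.04 to 6.47 CPM in control samples, with Prph called lower. In that list Isl1 went the other way, at 6.78 ± 4.06 CPM in Sufu-cKO and 1.58 ± 1.67 CPM in control samples (SD, n = 4 each). It was not called (edgeR, adjusted p = 0.281). Of 9 pericyte and mesenchyme markers, Vtn was called lower, and without Mut_337 the number called was 5. The dorsal forebrain markers Emx1, Emx2 and Lhx2 were called lower, Emx1 with 31.2 ± 6.50 CPM in Sufu-cKO and 51.6 ± 6.02 CPM in control samples (SD, n = 4 each; edgeR, adjusted p = 0.00831). Emx1-cre is named only for the Sufu-cKO samples, and its part in the Emx1 difference was not tested. No marker in these lists was at 0 in all samples. The part of these cell types in the filament results was not tested.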

How the data were processed

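Polyadenylated RNA was sequenced from stranded TruSeq libraries, per the labels' protocols, and aligned with STAR 2.4.2a to GRCm38, per the submitters' processing notes. How reads were counted, and with which strand setting, is not given in the sources used here. Raw counts per gene, as deposited by the authors, were the values tested. A second deposited table holds a normalised signal, which equals each count divided by 1 size factor per sample, and the authors' fold ratio, p-value and false discovery rate. The labels do not say whether samples came from separate embryos, so the p-values speak only of the spread among these 8 samples, part of which may be technical. All 12 pairs within a group differed by more than sampling noise (chi-square per degree of freedom of at least 8.90), so each sample was counted once.

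In R 4.3.3, edgeR 4.0.16 (filterByExpr, min.count 10, min.total.count 15, TMM scaling, robust quasi-likelihood F-test, 2-sided, Benjamini-Hochberg over 15382 genes) gave log2 fold changes, and SE came from the F statistic. Levels are TMM-scaled CPM. Log2 values for ratios and profiles used a prior count of 2. Ratios were compared by exact permutation tests over samples. Exon lengths came from GENCODE M21 (GRCm38). Alternatives used DESeq2 1.42.0, limma-voom (limma 3.58.1), other scalings and filters, and each sample left out. The scripts were tested on simulated data. The 9 genes, the 17 related lists and the tests were chosen with earlier results of these data known. Named genes were the 9 genes, in each list the called genes of smallest p (4 at most, filled to 2 by abundance), and the 3 nearest profiles. Any other named gene was picked after its values were known. Columns of values without a sample numbered 0.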

Additional observations from a re-analysis of the deposited data

Results flagged for a closer look

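Sets of 4 values were checked for 1 sample that lies apart, by the gap to its nearest neighbour as a share of the whole range (critical value 0.829). Of 108 sets 14 passed, and chance alone gives about 1 in 20 for independent, normally distributed values. The sets are linked, since Col1a1, Col1a2 and Col3a1 also enter the summed pericyte and mesenchyme markers, so these rates cannot be compared directly. Mut_337 was apart from the other Sufu-cKO samples in Col1a1 (gap share 0.947), Col1a2 (0.99), Col3a1 (0.917), the summed pericyte and mesenchyme markers (0.971), the keratin genes Krt14 (0.89) and Krt15 (0.832), and the log2 ratio of Vim to the progenitor index (0.834), which was 3.09 in Mut_337 and 2.89 to 2.93 in the other Sufu-cKO samples. Mut_340 was apart in Prph (0.874), with 0.323 CPM against 0.0293 to 0.0662 CPM in the other Sufu-cKO samples, and in the summed young neuron genes (0.912), with 3054 CPM against 2823 to 2843 CPM. Syne3 had a high sample in each group, Mut_295 in Sufu-cKO (0.891) and Cont_345 in control (0.846), and Sox1 was highest in Cont_345 among the controls (0.848). In Cont_370, Krt14 and Krt15 (gap share 1 for both) rested on 1 and 3 counts against 0 in the other controls.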

How the results depend on the processing

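Under 17 alternatives per gene (8 with 1 sample left out and 9 other settings), Synm and Vim kept their direction and call in every one, with log2 fold changes from 2.51 to 2.65 for Synm and from 0.40 to 0.46 for Vim. Nes and Ina kept direction throughout and lost the call only against a 1.2-fold change, where the estimates stayed at 0.42 and 0.45 (edgeR, adjusted p = 0.0773 and 0.112). That test called 716 genes in all, against 1689, and 18 genes of the related lists, against 30. With 1 sample left out the number of called genes ranged from 1079 (without Cont_345) to 1836. Of 5 genes that were not called, Nefm and Lmnb1 kept their sign. Lmnb2 changed sign with upper quartile scaling (-0.012), total counts (-0.0098), no filter (-0.0008), the 1 CPM filter (-0.004) and limma-voom (-0.0044), and ranged from -0.10 to 0.0861 with 1 sample left out. With 1 sample left out Nefl ranged from -0.0238 to 0.15 and Lmna from -0.25 (without Mut_337) to 0.59. The difference in log2 ratio ranged from -0.0665 to 0.0357 for Nes over Vim, from -0.36 to 0.37 for Lmna over Lmnb1, and from -0.16 to 0.0197 for Lmnb2 over Lmnb1. The cause of these changes was not tested. Counts of 66 to 330 per sample limit the precision for Lmna. No paired analysis was made, because the labels do not say which samples share a litter.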
